A study of Homo sapiens with 13 samples.

Results

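Accessible regions outside genes and far from any gene start, called gene-desert peaks here, were compared between G1 and M-phase in T98G, an established human glioblastoma cell line. The 3297 regions described are the autosomal ATAC-seq peaks that overlap no gene body in the GRCh37 version of GENCODE release 44 (GRCh37 and hg19 name the same assembly) and lie more than 100 kb from the transcription start site (TSS) of any annotated transcript, coding or not. They were chosen by position alone, out of 129347 peaks in all. The name stands for this rule only, since the end of a gene can lie closer than its TSS. The gene-free intervals that hold these peaks had a median length of 283 kb. In ATAC-seq, a transposase cuts and tags open DNA, so that read density measures how accessible the chromatin is. There were 3 libraries of each phase. Cells of the G1 group were serum-starved for 72 h. Those of the M-phase group were serum-starved for 48 h and kept for a further 36 h in serum and nocodazole, a microtubule poison that arrests cells in mitosis. Serum release and cell cycle phase therefore cannot be told apart, and neither can phase and sequencing platform, since only the M-phase replicates also had NextSeq runs, which the deposited values do not keep separate. Nothing in the labels says that the 3 libraries of a phase came from separate cultures, so the tests measure the spread between libraries.

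Peaks far from any TSS are usually bound by transcription factors at enhancers or by architectural proteins such as CTCF, and long gene deserts around developmental genes are known for enhancers that act over large distances. When cells enter mitosis, chromatin condenses and transcription largely stops, while many accessible sites are known to stay open. AP1 factors respond to serum and stress, TEAD factors are the DNA-binding partners of YAP, and RUNX, CEBP and FOX factors bind distal enhancers in many lineages.

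Below is the GRCh37 plus-strand sequence of the central 200 bp of 4 of these peaks, the window in which motifs were searched. They are shown because the TGFB2 and ARHGAP42 peaks are among the largest falls in M-phase and the others among the largest rises. Capitals mark matches, on either strand, to the consensus sites of AP1 (TGANTCA), TEAD (GGAATG) and CEBP (TTGCNNAA), and no marked site overlaps another. The peaks are named by their nearest protein-coding TSS, which is a position only, and no target gene was assigned.
Fall near TGFB2, chr1:218845021-218845220: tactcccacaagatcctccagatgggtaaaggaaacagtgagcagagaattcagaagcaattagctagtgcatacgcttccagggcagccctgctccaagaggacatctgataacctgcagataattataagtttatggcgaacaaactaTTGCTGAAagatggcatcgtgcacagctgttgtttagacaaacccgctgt
Fall near ARHGAP42, chr11:100385926-100386125: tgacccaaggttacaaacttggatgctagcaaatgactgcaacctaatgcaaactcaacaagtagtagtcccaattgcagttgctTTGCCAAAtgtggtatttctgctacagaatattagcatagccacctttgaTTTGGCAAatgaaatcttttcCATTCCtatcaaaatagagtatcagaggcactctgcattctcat
Rise near TMTC3, chr12:88693174-88693373: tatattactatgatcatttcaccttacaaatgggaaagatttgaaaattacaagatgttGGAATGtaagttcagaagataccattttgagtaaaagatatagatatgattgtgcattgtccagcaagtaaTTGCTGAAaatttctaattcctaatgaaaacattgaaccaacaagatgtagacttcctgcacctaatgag
Rise near TENM3, chr4:181951861-181952060: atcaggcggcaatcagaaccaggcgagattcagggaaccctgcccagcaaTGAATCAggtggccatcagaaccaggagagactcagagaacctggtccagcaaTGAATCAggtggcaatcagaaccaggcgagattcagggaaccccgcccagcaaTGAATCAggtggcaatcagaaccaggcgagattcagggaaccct
CEBP sites are in the TGFB2 (1), ARHGAP42 (2) and TMTC3 (1) windows, and TEAD sites in the ARHGAP42 and TMTC3 windows, so both occur in falls and in a rise. The TENM3 window is a tandem repeat, and the AP1 site recurs with the repeat unit, 3 times at a spacing of 53 bp.

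The values are called scaled counts here, since the authors brought the number of reads in each peak down to the size of the smallest library. They summed to between 4191845 and 5092426 over all peaks in the G1 libraries and to between 5475345 and 6000423 in the M-phase libraries. The smallest value above 0 was 0.8 to 1 in the G1 libraries and 0.4 to 0.5 in the M-phase libraries, so 1 read weighed less in M-phase and its values carried less counting error. Of 8 genes that mark glioblastoma or mesenchymal glioma lines, VIM, CD44, SOX9, EGFR and OLIG2 had a promoter peak with a mean of at least 10 in both phases, SOX2 had one with 11.6 in G1 and 7.70 in M-phase, and NES and GFAP had none.

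The gene-desert peaks were weak and narrow, as were other peaks away from a TSS. Their median mean over the 6 libraries was 8.43 scaled counts, against 11.1 for all peaks and 145 for peaks overlapping a TSS, and their median width was 219 bp. The median distance to any TSS was 137 kb, the largest was 565 kb, and the median distance to a protein-coding TSS was 327 kb. Only 29 of the 3297 (0.880%) were rich in CpG dinucleotides, compared with 12.2% of all peaks. Intergenic peaks 2 to 100 kb from a TSS had a median mean of 9.52 and a median width of 224 bp, and 3.00% were CpG-rich. For peaks inside gene bodies over 100 kb from any TSS these values were 8.325, 217 bp and 0.914%. On log2(scaled count + 8), Pearson's r across the 3297 peaks, which are not independent replicates, was 0.846 to 0.852 between G1 libraries, 0.800 to 0.853 between M-phase libraries and 0.699 to 0.773 between libraries of different phases.

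Most gene-desert peaks kept similar accessibility in both phases, and among those that changed, losses in M-phase outnumbered gains. A change is log2(scaled count + 8) in M-phase minus G1, tested with limma over all peaks, and a peak is called at a Benjamini-Hochberg adjusted p under 0.05. Over all 3297 peaks the median change between phase means was 0.05, against 0.07 over all peaks of the series, and 83.0% changed by less than 1.5-fold, against 78.4%. That share depended on the level. It was 90.3% among gene-desert peaks with a mean below 10, where the added 8 narrows changes. With a mean of at least 20 it was 70.1%, against 62.7% of all peaks of that level. The filter on low values left 1519 peaks (46.1%) to test. Of these, 53 were higher in M-phase (3.49%) and 222 were lower (14.6%), where over all 73121 peaks tested 14.3% were higher and 13.1% were lower. The share that fell was thus close to that of all peaks, while the share that rose was below it. Gains were also fewer than losses in the other classes away from a TSS. Of tested intergenic peaks 2 to 100 kb from a TSS, 5.97% rose and 14.8% fell. In tested peaks inside gene bodies over 100 kb from any TSS these shares were 2.50% and 18.1%. Among tested TSS peaks, which are part of all peaks, 43.6% rose and 5.79% fell. At an adjusted p of at most 0.001 and at least a 1.5-fold change, 11 gene-desert peaks were higher and 80 lower, against 7.32% and 4.49% of all peaks. All M-phase libraries lay above all G1 libraries at 134 of the tested peaks (8.82%, against 19.7% of all peaks) and below them at 315 (20.7%, against 18.6%).

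**Figure D1:**
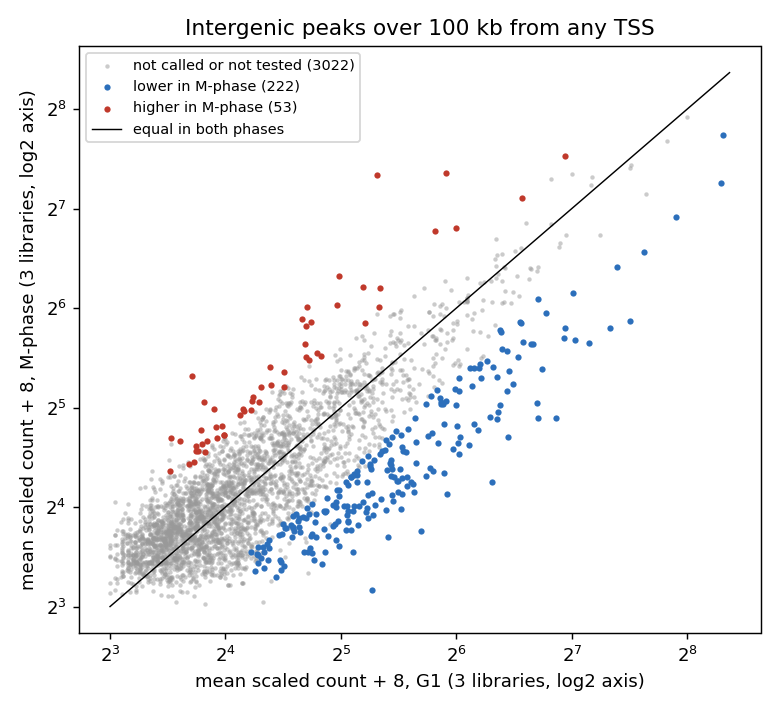
Each point is 1 of the 3297 gene-desert peaks, with its mean scaled count + 8 over 3 G1 libraries on the x axis and over 3 M-phase libraries on the y axis, both log2 axes. Most points follow the line of equal values, and the 222 peaks called lower in M-phase outnumber the 53 called higher.

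The excess of losses over gains was present under each scaling tried, with counts of 37 higher and 283 lower under TMM, 71 and 191 under a trended loess and 22 and 387 with equal totals in peaks. Over all peaks tested, losses also outnumbered gains under these scalings. There 12.1% were higher and 17.3% lower under TMM, 9.99% and 14.6% under the loess, and 8.67% and 24.7% with equal totals. For gene-desert peaks the shares were 2.44% and 18.6%, 4.67% and 12.6%, and 1.45% and 25.5%. The higher share of the calls was 19.3% as deposited and 5.38% with equal totals. The size of the counts moved when 1 library was left out. The filter still asked for 3 libraries at a value equivalent to 10, so fewer peaks were tested. They numbered 1376, 1388 and 1414 without G1 replicates 1, 2 and 3. Without G1 replicate 3, 60 were higher and 99 lower. Without G1 replicate 1 and without G1 replicate 2, 143 and 147 were lower, and without M-phase replicate 3, 29 were higher. Nearly all peaks with a mean of at least 20 stayed in the test. Of 627 such peaks, 120 and 124 were lower without G1 replicates 1 and 2, against 122 of 628 with all libraries. By the stricter criteria, 3 to 6 were higher without any 1 library other than G1 replicate 3, and 32 to 60 were lower, fewest without G1 replicate 3. Median changes followed the scaling, being −0.01 for both the gene-desert peaks and all peaks under TMM and −0.13 for both with equal totals.

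Among gene-desert peaks with a mean of at least 10, the share called lower rose with the level. A weak peak could pass the filter through 1 phase alone, so the peaks with a mean of at least 20 over all libraries, every one of which was tested, are given separately. Of these 628 peaks, 26 were higher (4.14%) and 122 lower (19.4%), while among all peaks of that level 22.8% were higher and 14.3% lower. The share lower was 10.5% of 754 tested peaks from 10 to 20, 17.2% of 506 from 20 to 50 and 28.7% of 122 at 50 or more, where 35 were lower and 6 higher. The share higher was 3.18%, 3.95% and 4.92% at these levels. The share lower also rose over them in intergenic peaks 2 to 100 kb from a TSS (10.2%, 17.8% and 22.1%). In peaks inside gene bodies over 100 kb from any TSS it was 12.9%, 22.6% and 37.5%. Below 10, only 137 of 1868 gene-desert peaks passed the filter, and 15.3% of these were lower. The median change was 0.11 below a mean of 10, 0.01 from 10 to 20, −0.07 from 20 to 50 and −0.21 at 50 or more. Without G1 replicate 3, the library that moved these counts most, 41 of 627 peaks of at least 20 were higher and 86 lower, with 10 and 25 of 122 at 50 or more, and without M-phase replicate 1 the counts were 17 and 99.

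Summed scaled counts showed the same split by level. The 628 stronger peaks together held 25029, 24797 and 31384 scaled counts in the G1 libraries and 22316, 22421 and 23525 in the M-phase libraries. The phases did not overlap, and the log2 ratio of the means was −0.25. The 2669 weaker peaks held 20473 to 22436 in G1 and 20951 to 21720 in M-phase, ranges that overlap, with a log2 ratio of 0.01. As a share of all counts in peaks, the gene-desert peaks took 1.07%, 1.08% and 1.06% in G1 and 0.804%, 0.741% and 0.752% in M-phase, a fall from 1.07% ± 0.0115 to 0.766% ± 0.0337 (SD, n = 3 each). That share also depends on the larger totals in M-phase, in which TSS peaks rose from 52.1% to 63.0% of counts. The two-sided exact permutation test over libraries gave p = 0.1 for both shares and for the sum of the stronger peaks, the smallest p that 3 libraries against 3 allow, and p = 1 for the sum of the weaker peaks.

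The next question was whether distance from a TSS sets these peaks apart. There were 36043 intergenic peaks 2 to 100 kb from a TSS. In each library the median log2 value of such a class was subtracted from the median of the gene-desert peaks, and the change of this difference from G1 to M-phase was tested. Relative to the nearer intergenic peaks the medians moved by 0.02 on the log2 scale (two-sided exact permutation test, p = 0.1) and the means by 0.01 (p = 0.8 in the same exact permutation test). Relative to TSS peaks the medians moved by −0.38 (exact permutation p = 0.1), which was −0.07 after a trended loess. Relative to the 1750 peaks that lie as far from a TSS but inside gene bodies, the medians moved by 0.03 (exact permutation p = 0.4). Restricted to a mean of at least 20, 19.4% of gene-desert peaks, 19.1% of nearer intergenic peaks and 25.4% of distant peaks inside genes were lower, and 4.14%, 9.49% and 3.09% were higher. At 50 or more the share that rose was 4.92% in deserts and 18.8% in the nearer intergenic peaks, of which 9.53% were CpG-rich against 0.820% in deserts. The mean log2 difference between these classes at 20 or more moved by −0.05 (exact permutation p = 0.1), and the difference in the share of risen peaks was not tested. Just inside the limit, at 100 to 110 kb, 10 of 274 tested peaks were higher and 43 lower, and just outside, at 90 to 100 kb, 18 of 334 were higher and 51 lower.

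**Figure D2:**
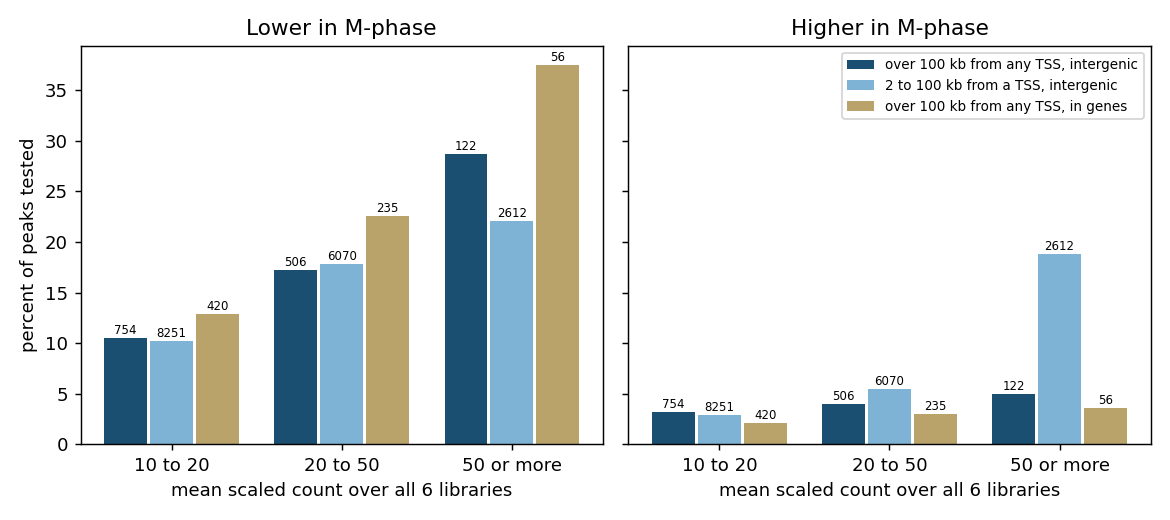
Bars give the percentage of tested peaks called lower (left) or higher (right) in M-phase at 3 levels of the mean scaled count, for gene-desert peaks, intergenic peaks nearer to a TSS and distant peaks inside genes, with the number tested above each bar. Over these levels the share lower rises to 28.7% in deserts, 22.1% in nearer intergenic peaks and 37.5% in distant peaks inside genes. The share higher stays below 5% in deserts, while nearer intergenic peaks of 50 or more reach 18.8%.

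Among the 110 lower peaks with a mean of at least 20 and no overlap between phases, the 6 largest falls were taken. The peak at chr1:218844846-218845395, 237 kb from the TSS of the growth factor gene TGFB2, had 72.6, 63.3 and 78 scaled counts in G1 and 15.7, 17.3 and 0 in M-phase. Every G1 library was more than 3 times any M-phase library, and the change was −2.23 ± 0.29 (SE, adjusted p = 1.66e-09 in limma). A pair of falls lay in the gene-free stretch of 617 kb next to TRPS1, which encodes a GATA-type zinc finger repressor. At chr8:116230980-116231925 the counts were 121, 90.6 and 113 in G1 and 13.6, 11.5 and 40.4 in M-phase, a change of −2.08 ± 0.26 (adjusted p = 2.85e-10). The peak at chr8:115934123-115934639 fell from 56.7, 30.5 and 44 to 3.70, 9.90 and 2.90, a change of −1.94 ± 0.29 (adjusted p = 8.35e-08). In neither did the phases overlap, and of 17 tested peaks nearest TRPS1, 5 were lower.

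The other large falls were single peaks in separate deserts. At chr13:77029723-77030533, 430 kb from KCTD12, which encodes an auxiliary subunit of GABA-B receptors, counts were 111, 68.8 and 110 in G1 and 30.1, 15.7 and 19.2 in M-phase (change −1.82 ± 0.25, adjusted p = 7.89e-09). At chr4:30539146-30539660, 182 kb from the protocadherin gene PCDH7, they were 54.7, 82 and 101 against 7, 16.9 and 30.3 (−1.81 ± 0.27, adjusted p = 8.64e-08). At chr11:100385816-100386234, 172 kb from ARHGAP42, they were 41.8, 46.9 and 69 against 5.40, 8.70 and 14.4 (−1.80 ± 0.28, adjusted p = 2.67e-07). All of these falls kept their call under every scaling and with each library left out, wherever the peak passed the filter. In the PCDH7 peak 74.4% of 31-base words occur once in the genome, so that reads from other copies may be counted in it.

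Gains were fewer, with 24 higher peaks meeting the same criteria, and the largest lay at the end of a chromosome. The peak at chr7:159127971-159128609, 10.1 kb from the end of chromosome 7 and 190 kb from VIPR2, a receptor gene for vasoactive intestinal peptide, had 26.8, 36.7 and 32 scaled counts in G1 and 141, 141 and 181 in M-phase. The lowest M-phase library was more than 3 times the highest G1 library (change 2.02 ± 0.23, adjusted p = 6.81e-12). It is 1 of the 29 CpG-rich peaks, and 59.8% of its 31-base words occur once in the genome, so that reads from other copies may be counted in it. At chr12:88692541-88694005, 156 kb from TMTC3, which encodes an O-mannosyltransferase of cadherins, the sequence is unique, and counts rose from 61.6, 32.8 and 62 to 180, 135 and 153 (1.48 ± 0.22, adjusted p = 7.88e-08). No libraries of the phases overlapped in any of the named gains.

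The tandem-repeat window printed above belongs to a gain. The TENM3 peak, chr4:181951498-181952423, is 1113 kb from the gene of that teneurin adhesion receptor, and 62.2% of its sequence consists of recurring 12-base words. Only 57.1% of its 31-base words occur once in the genome, so reads from other copies may be counted in this peak too. The TENM3 peak had 10.9, 20.3 and 23 scaled counts in G1 and 65.9, 43.7 and 59.2 in M-phase (1.32 ± 0.27, adjusted p = 5.59e-05). The lowest M-phase library exceeded every G1 library. Such repeats were uncommon in every group, since 3 of 53 higher, 3 of 222 lower and 40 of 1244 uncalled peaks held at least 20% recurring words. The last of the named gains had 17.9, 28.9 and 24 in G1 and 81.2, 42.4 and 92.4 in M-phase at chr7:12105679-12106601, 144 kb from the lysosomal protein gene TMEM106B (1.29 ± 0.26, adjusted p = 4.41e-05), and 9.90, 23.4 and 23 against 42.4, 45.3 and 62.6 at chr2:119144646-119145469, 280 kb from INSIG2, a regulator of sterol synthesis (1.15 ± 0.27, adjusted p = 0.000561).

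**Figure D3:**
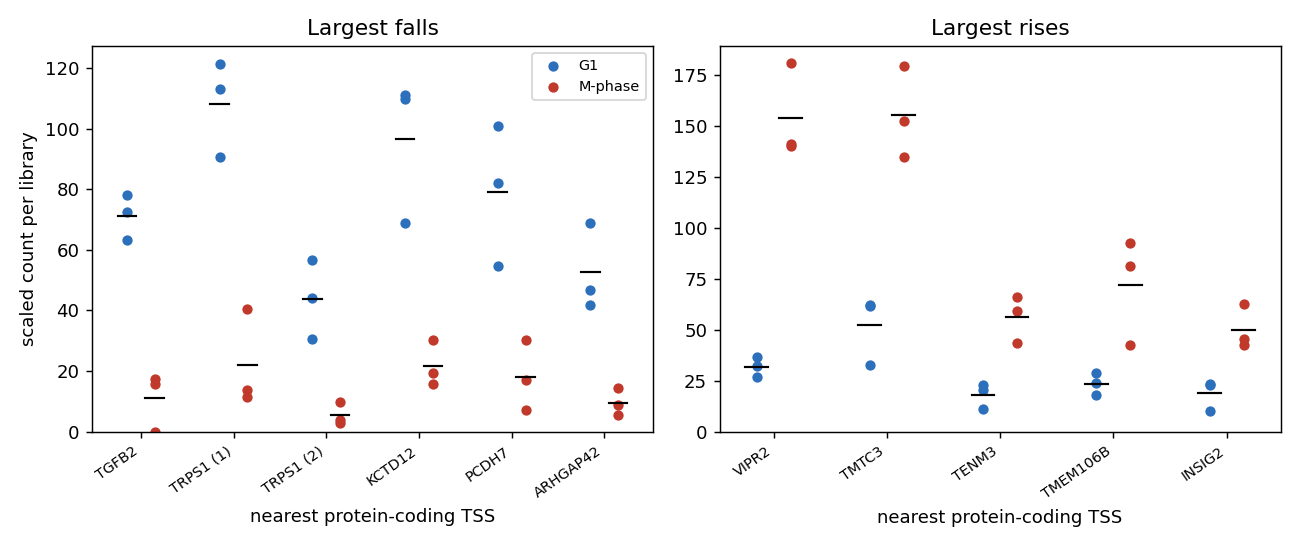
Scaled counts in each library at the 6 largest falls (left) and 5 of the 6 largest rises (right) among gene-desert peaks, named by the nearest protein-coding TSS, with G1 in blue, M-phase in red and a bar at each mean of 3 libraries. In none of the 11 peaks do the phases overlap.

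Of the 5 strongest desert peaks, 3 were called lower in M-phase and the others were not called. The highest of all, chr5:3310760-3312010, 284 kb from the Iroquois homeobox gene IRX1, had 270, 275 and 383 scaled counts in G1 and 200, 175 and 244 in M-phase. The phases did not overlap, and the change was −0.56 ± 0.18 (adjusted p = 0.0136 in limma), a call that was lost when G1 replicate 3, M-phase replicate 1 or M-phase replicate 2 was left out (−0.40 to −0.55). The peak 179 kb from BET1, a Golgi SNARE gene (chr7:93812356-93813489), fell from 266, 238 and 411 to 137, 148 and 151 (−0.99 ± 0.19, adjusted p = 1.75e-05), and that 335 kb from PABPC4L (chr4:134786752-134788066) from 205, 166 and 323 to 113, 110 and 114 (−0.94 ± 0.20, adjusted p = 0.000123). In these peaks G1 replicate 3 was the highest library. The peak 316 kb from CBLN1, which encodes a synaptic organizer (chr16:48997334-48999644), had 216, 231 and 295 in G1 and 224, 241 and 236 in M-phase (−0.07 ± 0.18, adjusted p = 0.835), and the one 176 kb from the growth factor gene FGF18 (chr5:171022807-171024003) had 209, 172 and 274 against 193, 188 and 208 (−0.12 ± 0.19, adjusted p = 0.686). Their libraries overlapped, and both peaks were called lower under a trended loess (−0.63 and −0.63) and with equal totals (−0.41 and −0.46).

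Some strong gene-desert peaks held nearly equal counts in both phases. Among the 50 strongest, the changes closest to 0 were at chr8:84642161-84643867 near RALYL, chr7:85600865-85602411 near the metabotropic glutamate receptor gene GRM3 and chr3:157502604-157503470 near VEPH1. Scaled counts there were 72 to 88.3, 96.1 to 110 and 73.4 to 103 in G1 and 68 to 83.2, 91.9 to 115 and 86.5 to 90.5 in M-phase, with changes of −0.01 ± 0.22, 0.02 ± 0.21 and 0.05 ± 0.22. The ranges overlap in each. The most isolated peak with a mean of at least 20, 516 kb from any TSS and 1676 kb from the neuronal gene SLITRK1 (chr13:82780006-82780588), had 24.9, 32.8 and 27 in G1 and 25.5, 17.3 and 22.1 in M-phase (−0.29 ± 0.28, adjusted p = 0.477). Next in isolation were chr11:37240834-37241300, 482 kb from a TSS, with 6 to 33.6 in G1 and 13.2 to 24.7 in M-phase (0.16 ± 0.30), and chr3:144640500-144641119, 476 kb away, with 18 to 32 against 31.3 to 43.8 (0.60 ± 0.27, adjusted p = 0.0934).

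Of the 6 consensus sites searched in the central 200 bp on both strands, RUNX sites went with the largest difference of medians between phases. The RUNX consensus (TGTGGTT or TGCGGTT) was in 193 gene-desert peaks (5.85%, against 5.77% of all autosomal peaks over 2 kb from a TSS). The median log2 value of these peaks minus that of the others was 0.16, 0.20 and 0.25 in the G1 libraries and 0.04, −0.04 and 0 in the M-phase libraries. The phases did not overlap, and the difference fell by 0.20 (two-sided exact permutation test, p = 0.1, adjusted p = 0.3 over 6 motifs). Averaged instead of taking medians, it fell from 0.11 ± 0.02 to −0.002 ± 0.002 (SD, n = 3 each). Of 103 tested peaks with a RUNX site, limma called 25 lower and 0 higher, with 34 and 4 at an unadjusted p under 0.05. Of 1416 tested peaks without the site, 197 were lower (13.9%) and 53 higher (3.74%). Among peaks of at least 20, 10 of 39 with a RUNX site were lower (25.6%), against 19.0% of those without. Over all tested peaks with a RUNX site, the 25 lower calls dropped to 10 without G1 replicate 1, 14 without G1 replicate 2 and 10 without G1 replicate 3. The filter still asked for 3 libraries, so peaks that had passed through G1 alone were then not tested. These drops therefore cannot tell lost calls from untested peaks. Without M-phase replicates 1, 2 and 3 the lower calls numbered 25, 22 and 21. Up to 2 peaks with a RUNX site were higher in other settings.

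AP1 sites (TGANTCA) marked stronger peaks and were found among both gains and losses. They were in 381 gene-desert peaks (11.6%, against 13.2% of autosomal peaks over 2 kb from a TSS), rising from 9.21% of those with a mean below 10 to 21.3% of those at 50 or more. Peaks with an AP1 site exceeded the others by a median of 0.24, 0.26 and 0.39 in G1 and 0.18, 0.18 and 0.22 in M-phase. These did not overlap, and the difference moved by −0.10 (exact permutation p = 0.1, adjusted p = 0.3), or by −0.06 as a mean (exact permutation p = 0.3). Among peaks of at least 20, 12 of 112 with an AP1 site were higher (10.7%) and 29 lower (25.9%), compared with 14 of 516 (2.71%) and 93 of 516 (18.0%) without one. Peaks with AP1 sites had a lower median GC content, 44.8% against 48.2%.

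TEAD, CEBP, FOX and CTCF sites were examined in the same way. TEAD sites (GGAATG) were in 451 peaks (13.7%, against 13.2%) and CEBP sites (TTGCNNAA) in 320 (9.71%, against 8.68%). Their difference from peaks without the site moved by −0.10 in each case (exact permutation p = 0.3 and p = 0.2, adjusted p = 0.45 and 0.4). As means it moved by −0.07 for TEAD and −0.11 for CEBP, with no overlap between phases (exact permutation p = 0.1 for each), and CEBP then matched RUNX. Among peaks of at least 20, 26 of 87 with a TEAD site (29.9%) and 22 of 69 with a CEBP site (31.9%) were lower, against 17.7% and 17.9% of those without. FOX sites (TGTTTAC or TATTTAC) were in 160 peaks (4.85%, against 5.33%), and the difference moved by −0.02 (exact permutation p = 1). The core CTCF consensus was in 37 peaks (1.12%, against 2.08%), a strict form of the site that misses weaker matches, and the difference moved by −0.04 (exact permutation p = 0.6). With sites searched over whole peaks instead of the central 200 bp, the differences moved by −0.13 for FOX and −0.12 for CTCF (exact permutation p = 0.1 for each). Some libraries had equal medians because the values come in rounded steps, so the plot of motif differences uses means.

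**Figure D4:**
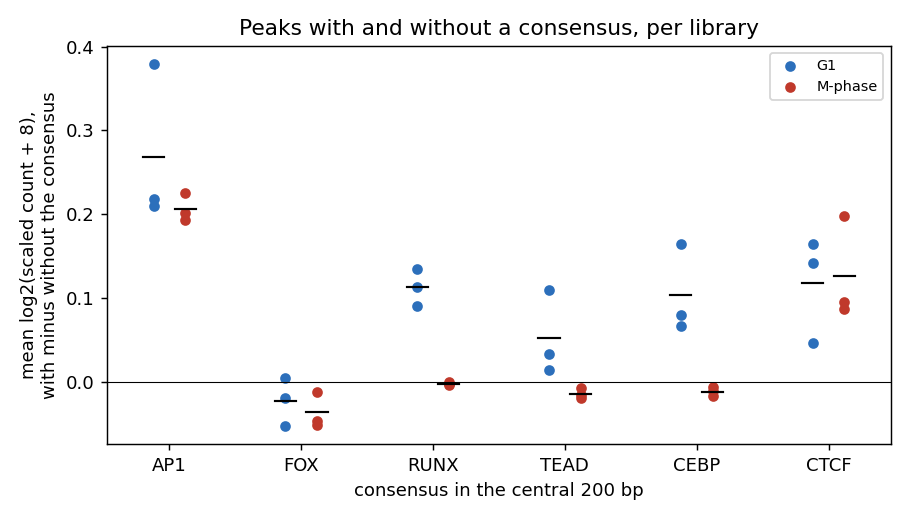
For each of 6 consensus sites, the y axis gives the mean log2(scaled count + 8) of gene-desert peaks with the site minus that of peaks without it, 1 point per library, with G1 in blue, M-phase in red and a bar at the mean of 3 libraries. The RUNX, TEAD and CEBP points of G1 lie above 0 and above every M-phase point, while AP1 is above 0 in both phases.

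Gene-desert peaks were spread unevenly over the chromosomes. Chromosomes 5, 7 and 20, singled out after their values were seen, held 695, 497 and 197 of them, 42.1% in all. All autosomal peaks over 2 kb from a TSS numbered 29541 on these chromosomes and 65818 on the other autosomes. Gene-desert peaks made up 4.97%, 3.29% and 3.00% of the peaks on chromosomes 5, 7 and 20, and 5.12% on chromosome 13. On the chromosomes singled out, 62 of 675 tested gene-desert peaks were lower (9.19%), and on the other autosomes 160 of 844 (19.0%). With a mean of at least 20, the shares were 12.6% of 277 and 24.8% of 351. All autosomal peaks over 2 kb from a TSS differed between these chromosomes in the same way, with 10.2% and 17.6% lower. By distance, there were 45 higher and 176 lower of 1276 tested at 100 to 200 kb and 8 higher and 46 lower of 241 at 200 to 500 kb. Of the 5 peaks farther away, 2 were tested and neither was called, also at an unadjusted p under 0.05 in limma.

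Developmental genes have long deserts, and peaks were grouped by whether their nearest protein-coding TSS belongs to one of 3 gene lists. Of 122 developmental transcription factors, 23 were nearest to 147 gene-desert peaks, of which 82 were tested, 7 were higher and 8 lower. The median change was 0.10, against 0.05 over all gene-desert peaks. Peaks near the Iroquois genes were not alike, with 4 of 11 tested lower near IRX1, and 1 of 23 higher near IRX2. Near SOX9, a regulator of glial and skeletal fate, 2 of 4 tested peaks were higher, and near SOX11, a factor of neuronal precursors, 2 of 4 were lower. Adhesion, guidance and synaptic genes (52 of 102) were nearest to 426 peaks, and 8 of 200 tested were higher and 23 lower. Among them EFNA5, an ephrin ligand that guides axons, had 2 higher and 2 lower of 22. Secreted signals, receptors and matrix genes (20 of 112) were nearest to 100 peaks. Of 54 tested, 4 were lower and 0 higher in limma, with 7 and 1 at an unadjusted p under 0.05, and the peaks lower were near FGF18 (2), TGFB2 and SPOCK3 (1 each). Of the 1183 tested peaks near other genes, 38 were higher and 187 lower.

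Losses also outnumbered gains when the same gene-desert peaks were summed by interval. The 3297 peaks lay in 620 gene-free intervals between neighbouring gene bodies, 210 of which held at least 5 of them. The median was 3 peaks, and 174 intervals held only 1, so that a sum can rest on a single peak. Summed over an interval and tested with limma over the 509 intervals that passed the filter, 16 were higher (3.14%) and 76 lower (14.9%) in M-phase. Intervals lower numbered 47 without G1 replicate 1, 49 without G1 replicate 3, and 40 and 41 without M-phase replicates 2 and 3, and intervals higher numbered 8, 10, 4 and 5 without G1 replicates 1 and 2 and M-phase replicates 2 and 3. Both higher and lower peaks were found in 10 intervals. Neighbouring tested peaks of the same interval had a correlation of changes of 0.123 in 217 pairs under 5 kb apart, 0.152 in 598 pairs at 5 to 50 kb and 0.156 in 159 pairs farther apart. These neighbours share libraries, and the values are a description.

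None of the 5 deserts with the most peaks was called in either direction. Intervals are named here by the protein-coding genes on either side, although noncoding genes or pseudogenes can lie closer and bound them. The interval chr7:85265661-85846100, between SEMA3D, a guidance ligand gene, and GRM3, held 61 peaks. Its sums were 1321, 1150 and 1344 in G1 and 1382, 1320 and 1325 in M-phase. The libraries overlap, and the change was 0.08 ± 0.08 (adjusted p = 0.491 in limma), although 2 of its 39 tested peaks were higher and 2 lower. The other intervals with the most peaks lay between BTBD3 and SPTLC3 on chromosome 20 (46 peaks), CHD1 and FAM174A on chromosome 5 (45), SEMA3D and GRM3 beyond a pseudogene on chromosome 7 (44), and SUGCT and INHBA, an activin subunit gene, on chromosome 7 (36). Their changes were 0.12 ± 0.09, 0.16 ± 0.10, 0.07 ± 0.10 and 0.08 ± 0.13. With equal totals in peaks 3 of the 5 were called lower, with changes of −0.27, −0.23 and −0.28 in the larger SEMA3D and GRM3 interval, the SPTLC3 interval and the smaller SEMA3D and GRM3 interval.

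Of the 210 intervals with at least 5 peaks, 25 were lower and 1 was higher. The largest fall, in the 418 kb interval between LMO7 and KCTD12 on chromosome 13, had sums of 308, 238 and 358 in G1 and 133, 88.6 and 97.2 in M-phase (−1.44 ± 0.17, adjusted p = 1.67e-06). It holds the KCTD12 peak named above, and 2 of its 3 tested peaks were lower. Between ANKRD50 and FAT4, an atypical cadherin gene, on chromosome 4, the sums fell from 98.5, 129 and 185 to 57.7, 60.9 and 50 (−1.14 ± 0.21, adjusted p = 0.000395). The phases overlapped in neither.

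**Figure D5:**
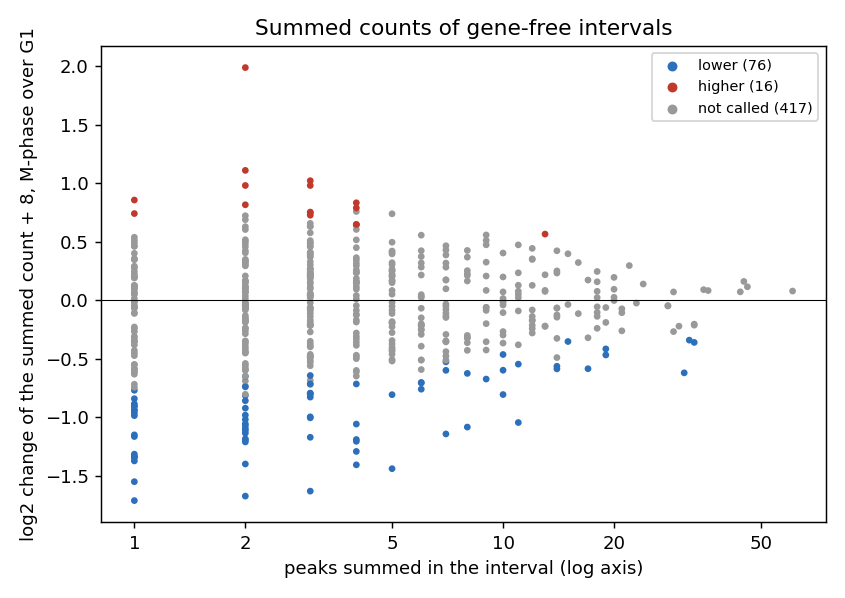
Each point is 1 of the 509 tested gene-free intervals, with the number of gene-desert peaks summed on the x axis (log) and the log2 change of the summed count + 8 in M-phase relative to G1 on the y axis. The 76 lower intervals are in blue and the 16 higher in red, and the 5 intervals with the most peaks lie between 0.07 and 0.16.

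Sequence composition was tabulated by call. The median GC content was 43.7% in the 222 lower peaks, 47.8% in the 53 higher peaks and 49.5% in the 1244 uncalled peaks. At least 90% of 31-base words were unique in the genome in 90.5% of lower peaks, 66.0% of higher peaks and 77.0% of uncalled peaks, against 77.9% of all gene-desert peaks and 72.1% of nearer intergenic peaks. Among the 2567 gene-desert peaks that were at least 90% unique, 35 of 1194 tested were higher and 201 lower. Of the 29 CpG-rich peaks, 14 were tested, 2 were higher and 0 lower in limma, and at an unadjusted p under 0.05 the counts were also 2 and 0. The part that GC content and repeated sequence had in the calls was not tested.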

How the data were processed

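Chromatin accessibility was measured by ATAC-seq in 3 G1 and 3 M-phase libraries of T98G cells. Sequenced chromatin fractions and inputs were not used here. The authors mapped reads to hg19 with Rbowtie in QuasR, keeping 1 of up to 3 locations, removed mitochondrial reads with samtools, pooled replicates for broad peak calls with macs2 and merged the peaks of both phases. Tool versions, and any shift of reads to the transposase cut, are not given in the sources used here. The deposited signal values are numbers of reads per peak, which the authors reduced to the size of the smallest library, with 0.1 as the last digit kept. Columns of the authors' own comparison (a log2 change and an SD) were not used. Each M-phase column joins a HiSeq and a NextSeq run of a replicate, and its sample is known only by phase and replicate number.

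Values were tested on log2(scaled count + 8) with limma 3.58.1 (mean-variance trend, no covariates, Benjamini-Hochberg over all peaks tested) in R 4.3.3, for peaks with at least 3 libraries at a value equivalent to 10 in a library of median size and a total of at least 15. Fold changes on this scale understate those of low peaks. The fit was tested on simulated data. A peak is CpG-rich when a window of at least 200 bp reaches 50% GC and 0.6 times the CpG number that its base composition predicts. Two-sided exact permutation tests were run over libraries. Peak and gene positions were compared with GENCODE release 44 on GRCh37, whose chromosome lengths match hg19, using Python 3.11.15, pandas 2.3.3, numpy 2.4.6, pysam 0.24.0, samtools 1.23.1 and matplotlib 3.10.9. Recurring words are 12-base words found more than once in a peak, and uniqueness was counted over 31-base words of the genome.

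Named peaks are the 6 largest falls and rises among called peaks (adjusted p under 0.05) whose mean is at least 20 and whose phases do not overlap, the 5 with the highest mean, the 3 of the 50 highest with a change closest to 0, and the 3 farthest from any TSS among those with a mean of at least 20. Named intervals are the 5 with the most peaks and, among called intervals with at least 5 peaks, up to 2 largest falls and rises. A peak and an interval that this rule takes are not reported here. The peaks, gene lists and motifs were chosen with earlier results of these data known. Alternatives were TMM, a trended loess, equal totals, a pseudocount of 1, other filters, a replicate block, each library left out, other distances, coding genes only, whole peaks for motifs, and means in place of medians, the last chosen after seeing the data.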

Additional observations from a re-analysis of the deposited data

How the results depend on the processing

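Losses outnumbered gains among gene-desert peaks in every setting run. Over all peaks tested they did so under TMM, a trended loess and equal totals, and narrowly without M-phase replicate 3. With equal totals in peaks, 22 gene-desert peaks were higher and 387 lower (3 and 146 by the strict criteria), the median change was −0.13, and 6 intervals were higher and 207 lower. Under TMM, 7 peaks were higher by the strict criteria, the median change was −0.014, and 10 intervals were higher and 134 lower. A trended loess gave a median of 0.034, and the mean over peaks was −0.018. With a pseudocount of 1 the median was 0.10 and 6 peaks were higher by the strict criteria. Without a filter 99 were higher, and with at least 10 in every library 31 were higher and 96 lower (7 and 37 strict), since 682 peaks were then tested. The higher share of the calls was 29.6% without a filter and 37.7% without G1 replicate 3.

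With the limit at 50 kb, 179 were higher and 647 lower (29 and 229 strict), and at 200 kb 8 and 46 (1 and 16 strict), with a median of 0.072. With coding genes only the counts were 669 and 2049 (175 and 717 strict), and the difference from distant genic peaks turned to −0.035. Leaving out 1 library gave 29 to 60 higher and 99 to 194 lower peaks (3 to 14 and 32 to 60 strict), medians of 0.038 to 0.059, and 4 to 23 higher and 40 to 69 lower intervals. The lowest count of lower peaks came without G1 replicate 3. Fewer peaks were tested with 1 library left out, since the filter still asked for 3 libraries. The named falls and rises kept their calls where tested. The cause of these moves was not tested.

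Small differences changed sign. With whole peaks searched, the motif differences ranged from −0.22 (RUNX) to −0.12 (CTCF). The CTCF difference was 0.012 under a trended loess and 0.0089 as a mean, and −0.14 to 0.050 with a library left out. The FOX difference was 0.0042 under the loess and −0.037 to 0.011 with a library left out. Under TMM the changes of 4 of the 5 intervals with the most peaks were −0.058 (85265661 on chromosome 7), −0.020 (SPTLC3), −0.064 (85847050 on chromosome 7) and −0.051 (INHBA). With equal totals they were −0.27, −0.23, −0.28 and −0.26, and −0.19 for CHD1. The GRM3 and VEPH1 peaks gave −0.10 and −0.078 under TMM, −0.20 and −0.095 under the loess, and −0.31 and −0.28 with equal totals, where the peak on chromosome 11 far from any TSS gave −0.087. With 1 library left out the changes ranged from −0.033 to 0.12 (GRM3 peak), −0.054 to 0.17 (VEPH1), −0.070 to 0.073 (RALYL), −0.27 to 0.51 (chromosome 11), −0.15 to 0.064 (CBLN1), −0.28 to 0.048 (FGF18) and −0.023 to 0.16 (interval 85847050).

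Replicate numbers did not pair the libraries. The correlations of deviations of same-numbered libraries were 0.006, −0.01 and 0.03. With the number as a block (replicate block), 60 peaks were higher and 235 lower, and 8 intervals higher and 51 lower. Tests of recovered reads with edgeR or DESeq2 were not run, since the scaled values did not give whole reads in every library. Counting error limits the weaker peaks, of which 1778 were not tested.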
